A study of Mus musculus with 8 samples.

Results

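Factor-inhibiting HIF (FIH), encoded in the mouse by Hif1an, belongs to the JmjC family of oxygenases, and 8 relatives of FIH within that family were examined for changes that might compensate for its loss: Jmjd4, Jmjd6, Jmjd8, Riox1, Riox2, Kdm8, Hspbap1 and Tyw5. They were chosen by gene symbol, and each symbol matched a single gene, giving 8 of the 53700 genes in the count table. JmjC hydroxylases bind iron and use molecular oxygen and 2-oxoglutarate to add a hydroxyl group to a protein side chain or, in the case of TYW5, to a modified tRNA base. FIH hydroxylates an asparagine in the transactivation domain of HIF-α and so blocks its contact with the coactivators p300 and CBP, while most of its relatives act on proteins of translation or splicing. Because enzymes of this family use oxygen, their RNA levels under hypoxia are of interest alongside their levels after FIH loss.

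The libraries came from a mouse tumor line, Lewis lung carcinoma (LLC), and formed 4 groups of 2. WT cells and FIH-KO cells were each cultured for 16 hours at 21% O2 (normoxia) or at 1% O2 (hypoxia). FIH-KO cells had been transfected with Cas9 protein and a guide against exon 2 of Hif1an and then diluted to single cells, so a difference from WT can belong to the clone as well as to FIH loss. How many clones gave the RNA, and whether the libraries of a group came from separate cultures, is not given in the sources used here, so p values measure the spread between these samples, which may be technical. Libraries held 14519731 to 18177016 counts on genes, and all 8 members were among the 13933 genes that passed the filter on low counts and were tested. Levels are given as TMM-scaled CPM (counts scaled to a common library size), and log2 fold changes come from edgeR's quasi-likelihood test with Benjamini-Hochberg adjustment over all tested genes, with a gene called at an adjusted p under 0.05.

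The cells carried the transcripts of a mesenchymal-like carcinoma line. Vim ranged from 3190 to 5440 CPM and the keratin genes Krt8 and Krt18 from 104 to 332 CPM, whereas Epcam was at 0 counts in all 8 libraries and Cdh1 at 0.0683 CPM or less. Of the lung epithelial markers, Nkx2-1 and Sftpc were at 0 in every library and the summed level of all 5 markers was at most 0.672 CPM. The 5 immune markers summed to 7.25 CPM at most, nearly all of it Cd68, and the 4 endothelial markers to 2.41 CPM at most. Most of that was Cdh5, which held 35 counts at most, rose with hypoxia in WT cells (4.01, adjusted p = 0.0010, edgeR) and was lower in FIH-KO than in WT cells in hypoxia (-2.62, adjusted p = 0.0051, edgeR). Krt8, Fn1 and Vim were called higher in FIH-KO cells in both oxygen conditions by edgeR. Their log2 fold changes were 1.02, 1.68 and 0.52 in normoxia, where Krt18 and Krt19 were at -0.05 each and not called. The other mesenchymal markers, Cdh2, Zeb1 and Twist1, were not called in either condition. In bulk RNA fewer cells of a type and less RNA per cell cannot be told apart. The first principal component held 50.5% of the variance and separated the genotypes, and the second held 30.4% and separated the oxygen conditions.

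Hif1an was examined first (ENSMUSG00000036450.5, GRCm39 chromosome 19, 44551286 to 44568723, plus strand). In normoxia it stood at 84.6 and 82.3 CPM in the WT libraries and at 34.8 and 37.7 CPM in the FIH-KO libraries. In hypoxia the WT libraries gave 90.2 and 84.0 CPM and the FIH-KO libraries 45.5 and 51.0 CPM. Every FIH-KO library was below every WT library, although a gene-level count does not show the edit itself. The log2 fold change was -1.20 in normoxia (SE 0.12, adjusted p = 3.1e-05, edgeR) and -0.85 in hypoxia (SE 0.12, adjusted p = 0.00031, edgeR). The 20 tested genes nearest to Hif1an had medians of -0.38 (normoxia) and -0.53 (hypoxia), the 475 other tested genes of chromosome 19 had medians of -0.38 and -0.45, and their part in the Hif1an result was not tested. With hypoxia Hif1an had a log2 fold change of 0.06 in WT cells (adjusted p = 0.71, edgeR). A rise of 0.41 with hypoxia in FIH-KO cells (adjusted p = 0.031, edgeR) was lost with only the 4 libraries compared (adjusted p = 0.094) and without either WT normoxia library (0.058 each), replicate 1 (0.14) or 2 (0.055) of FIH-KO normoxia, or replicate 2 of FIH-KO hypoxia (0.11).

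Members were counted first by their calls in FIH-KO against WT cells. In normoxia 1 of the 8 members was called, Jmjd6, which was lower in FIH-KO cells, against 28.2% of all tested genes called in either direction. None of the 8 was called higher by edgeR, against 15.2% of tested genes, and 1 was called lower, against 13%. At an unadjusted p under 0.05 there were 4 members, beside 5505 of the 13933 tested genes. Of these 4 members 1, Hspbap1, lay higher in FIH-KO cells, and DESeq2 called that gene higher as well (adjusted p = 0.047). In hypoxia 2 members, Riox1 and Jmjd4, were called lower, against 28.0% of tested genes in either direction and 13.9% lower. Again 0 were called higher by edgeR, against 14.1% of tested genes, and 0 by DESeq2, with 3 members at an unadjusted p under 0.05, beside 5500 of the 13933 tested genes. Of these 3 members 1, Jmjd8, lay higher. The median log2 fold change of the 8 members was -0.17 in normoxia and -0.08 in hypoxia, beside 0 and -0.03 over all tested genes. Mitochondrial transcripts made up 2.11% to 2.66% of counts in the FIH-KO libraries and 1.59% to 1.97% in the WT libraries, and their part in the genotype differences was not tested.

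The same counts were made for hypoxia against normoxia. In WT cells 3 members were called higher (Jmjd6, Riox1 and Riox2), against 16.9% of tested genes, and 1 was called lower (Jmjd8), against 15.5%, which together is 4 of 8 beside 32.4% of tested genes. At an unadjusted p under 0.05 there were 5 members, beside 5957 of the 13933 tested genes. In FIH-KO cells 1 member, Jmjd6, was called higher, against 8.84% of tested genes, and none was called lower by edgeR or DESeq2, against 8%, so that 1 of 8 was called beside 16.8% overall; at an unadjusted p under 0.05 the count was also 1, beside 4315 of the 13933 tested genes. The members' median log2 fold change was 0.13 in WT and 0.01 in FIH-KO cells, beside 0 and -0.03 over all tested genes. With single libraries left out the WT count ran from 1 to 4, the lowest without replicate 2 of WT normoxia or replicate 2 of WT hypoxia. These counts do not show that the genotypes differed in their response. The difference itself, tested as an interaction of genotype and oxygen, was called by edgeR for 0 members and for 0% of tested genes, with 0 members and 925 genes at an unadjusted p under 0.05, and by DESeq2 for 0 members and 40 genes.

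**Figure D1:**
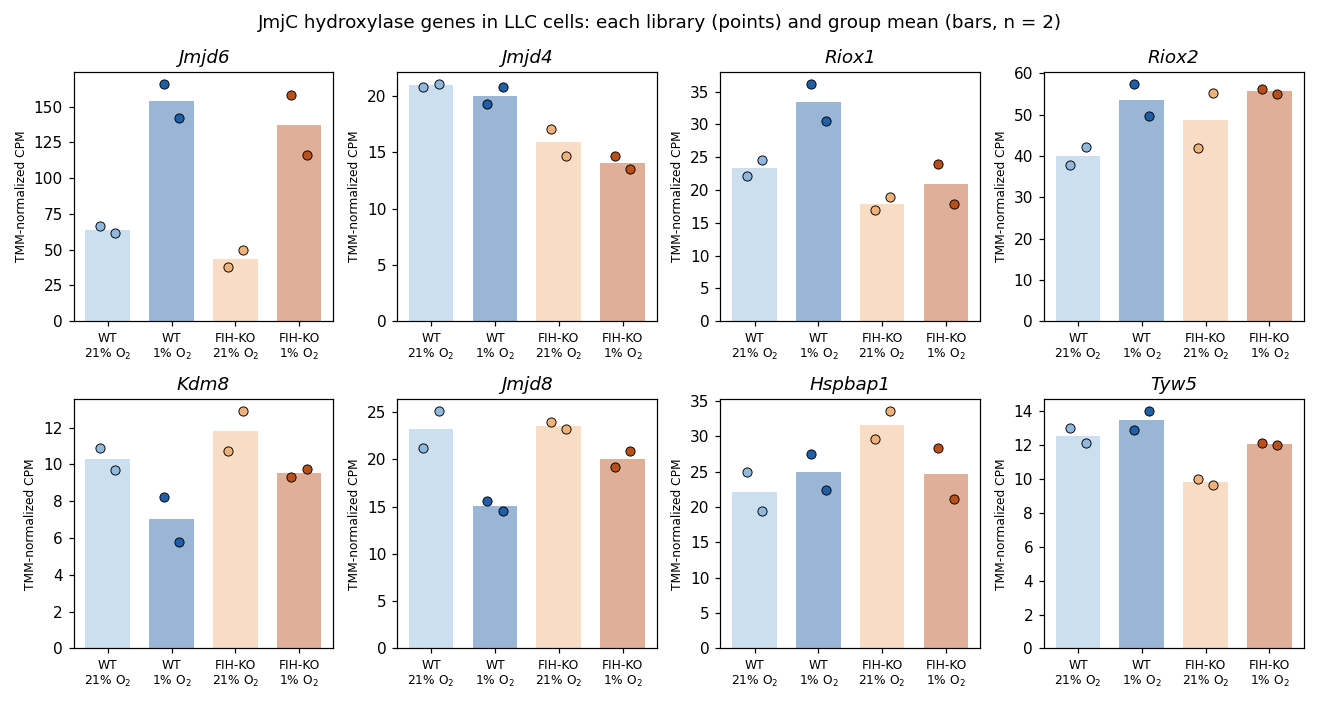
Level of each of the 8 genes in CPM after TMM scaling (vertical axis, from 0, with its own range in each panel) in the 4 groups; points are libraries and bars are group means (n = 2). Jmjd6 lies between 116 and 166 CPM in the 4 hypoxic libraries and between 38.0 and 66.5 CPM in the 4 normoxic ones, and Jmjd4 is at 17.1 CPM or less in each FIH-KO library and at 19.3 CPM or more in each WT library.

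Jmjd6 encodes a nuclear lysyl hydroxylase that modifies the splicing factor U2AF65 (ENSMUSG00000056962.12, chromosome 11, 116728252 to 116734630, minus strand). WT cells had 66.5 and 61.3 CPM in normoxia and 166 and 142 CPM in hypoxia. FIH-KO cells had 38.0 and 49.5 CPM in normoxia and 158 and 116 CPM in hypoxia. The hypoxic libraries were all above the normoxic ones, and within normoxia both FIH-KO libraries were below both WT libraries, whereas in hypoxia the genotypes overlapped. Hypoxia raised Jmjd6 by 1.27 on the log2 scale in WT cells (SE 0.16, adjusted p = 0.00018, edgeR), a 2.41-fold rise, and by 1.65 in FIH-KO cells (SE 0.17, adjusted p = 7.5e-05, edgeR), a 3.13-fold rise. Of the 13933 tested genes, 918 had a higher log2 fold change in WT cells and 375 in FIH-KO cells. The rise was called with each library left out in turn, at 1.11 to 1.38 in WT and 1.44 to 1.87 in FIH-KO cells. The interaction was 0.38 (95% confidence interval -0.12 to 0.87, adjusted p = 0.80, edgeR).

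In normoxia Jmjd6 was lower in FIH-KO than in WT cells by a log2 fold change of -0.54 (95% confidence interval -0.90 to -0.19, adjusted p = 0.028, edgeR), which is 0.686 of the WT level. This call was lost when single libraries were left out: the adjusted p was 0.14 without replicate 1 of WT normoxia, 0.069 without replicate 2, and 0.20 without replicate 1 of FIH-KO normoxia, where the log2 fold change was -0.39. In hypoxia the value was -0.17 (95% confidence interval -0.52 to 0.18, adjusted p = 0.47, edgeR). The 20 tested genes nearest to Jmjd6 had a median of -0.09 in both oxygen conditions.

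Jmjd4 encodes the lysyl hydroxylase of the translation termination factor eRF1 (ENSMUSG00000036819.15, chromosome 11, 59340855 to 59351936, plus strand). In WT cells it stood at 20.8 and 21.1 CPM in normoxia and at 19.3 and 20.8 CPM in hypoxia. FIH-KO libraries held 17.1 and 14.7 CPM in normoxia and 14.7 and 13.5 CPM in hypoxia. All 4 FIH-KO libraries were below all 4 WT libraries, while the oxygen conditions touched within each genotype. The difference from WT was called in hypoxia, with a log2 fold change of -0.51 (SE 0.16, adjusted p = 0.029, edgeR), and missed the threshold in normoxia at -0.40 (SE 0.15, adjusted p = 0.072, edgeR). The call in hypoxia was lost without low-count filtering (adjusted p = 0.077), with only the 4 libraries compared (0.089), and without replicate 1 or 2 of WT normoxia (0.073 each), WT hypoxia (0.090 and 0.13) or FIH-KO hypoxia (0.056 and 0.11), with the log2 fold change between -0.53 and -0.44. In normoxia it was gained without replicate 1 of FIH-KO hypoxia (adjusted p = 0.044). The median over the 20 nearest tested genes was -0.36 in hypoxia, 4 of them above 0, and of -0.06 in normoxia, and their part in the Jmjd4 result was not tested. Hypoxia itself gave values of -0.06 in WT cells (95% confidence interval -0.40 to 0.27) and -0.17 in FIH-KO cells (-0.51 to 0.17).

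Riox1 and Riox2 encode the ribosomal oxygenases, histidyl hydroxylases that act on the large-subunit proteins RPL8 and RPL27A. Riox1 is a gene with a single coding exon (ENSMUSG00000046791.9, chromosome 12, 83997382 to 83999725, plus strand). It stood at 22.2 and 24.6 CPM in WT normoxia, 36.2 and 30.5 CPM in WT hypoxia, 16.9 and 18.9 CPM in FIH-KO normoxia and 23.9 and 17.9 CPM in FIH-KO hypoxia. The WT hypoxia libraries were the highest, and in each oxygen condition the FIH-KO libraries were below the WT libraries. In hypoxia Riox1 was lower in FIH-KO cells by a log2 fold change of -0.68 (SE 0.17, adjusted p = 0.011, edgeR), 0.626 of the WT level. That call was lost without replicate 1 of WT hypoxia (adjusted p = 0.12) and without replicate 2 of FIH-KO hypoxia (0.071), where the log2 fold changes were -0.51 and -0.48. In normoxia the value was -0.39 (95% confidence interval -0.76 to -0.01, adjusted p = 0.11, edgeR), which passed without replicate 1 of FIH-KO hypoxia (0.048). The 20 tested genes nearest to Riox1 had medians of 0.18 in normoxia and 0.10 in hypoxia, with 15 and 13 of them above 0, and their part in the Riox1 result was not tested.

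With hypoxia, Riox1 rose in WT cells by 0.51 on the log2 scale (SE 0.17, adjusted p = 0.036, edgeR), a 1.42-fold rise. Leaving out a library took the adjusted p past the threshold for both WT normoxia libraries (0.25 and 0.13), both WT hypoxia libraries (0.26 and 0.051) and both FIH-KO normoxia libraries (0.055 and 0.056). In FIH-KO cells the value was 0.22 (95% confidence interval -0.15 to 0.60), and the interaction was -0.29 (-0.81 to 0.24, adjusted p = 0.85, edgeR).

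Riox2 (ENSMUSG00000022724.16, chromosome 16, 59292130 to 59325782, plus strand) had 37.7 and 42.1 CPM in WT normoxia and 57.5 and 49.6 CPM in WT hypoxia. In FIH-KO cells it had 42.0 and 55.2 CPM in normoxia and 56.3 and 55.1 CPM in hypoxia. WT normoxia was thus the low group, and replicate 1 of FIH-KO normoxia lay within its range. Riox2 rose with hypoxia in WT cells by 0.43 on the log2 scale (SE 0.15, adjusted p = 0.045, edgeR). This call was lost with upper-quartile scaling (adjusted p = 0.053) and without either WT normoxia library (0.32 and 0.14), either WT hypoxia library (0.31 and 0.064) or replicate 1 of FIH-KO hypoxia (0.055). The response of FIH-KO cells was 0.20 (95% confidence interval -0.12 to 0.51), and the effect of FIH-KO was 0.29 in normoxia (-0.04 to 0.61) and 0.06 in hypoxia (-0.26 to 0.37). None of these passed the test, and the intervals leave room for differences in either direction. For FIH-KO against WT the 20 tested genes nearest to Riox2 had a median of 0.27 in both oxygen conditions. With 14 (normoxia) and 16 (hypoxia) of them above 0, their part in the Riox2 values was not tested.

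Kdm8 encodes JMJD5, an arginyl hydroxylase of the ribosomal protein RPS6 and of RCCD1 (ENSMUSG00000030752.9, chromosome 7, 125043794 to 125061454, plus strand). With 85 to 231 counts per library it was among the members with the fewest counts. The levels were 10.9 and 9.71 CPM in WT normoxia, 8.24 and 5.80 CPM in WT hypoxia, 10.7 and 12.9 CPM in FIH-KO normoxia and 9.31 and 9.76 CPM in FIH-KO hypoxia. Hypoxic libraries were the lower ones in each genotype, and none of the 4 comparisons passed the test. The log2 fold change with hypoxia was -0.55 in WT (95% confidence interval -1.02 to -0.07, adjusted p = 0.075, edgeR) and -0.31 in FIH-KO cells (-0.77 to 0.16). FIH-KO against WT gave 0.43 in hypoxia (-0.05 to 0.91, adjusted p = 0.17, edgeR), the highest value of any member there, and 0.19 in normoxia (-0.27 to 0.66). The hypoxic value ran from 0.21 without replicate 2 of WT hypoxia to 0.75 without replicate 1. The WT response was called without replicate 1 of WT hypoxia (-0.87, adjusted p = 0.040) and without replicate 1 of FIH-KO hypoxia (-0.59, adjusted p = 0.048).

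JMJD8 resides in the lumen of the endoplasmic reticulum, and its gene (ENSMUSG00000025736.16, chromosome 17, 26047777 to 26051447, plus strand) was the only member called lower with hypoxia, in WT cells. Jmjd8 stood at 21.2 and 25.1 CPM in WT normoxia and at 15.6 and 14.5 CPM in WT hypoxia. FIH-KO libraries held 23.9 and 23.2 CPM in normoxia and 19.2 and 20.9 CPM in hypoxia. The WT hypoxia libraries were lower than all others, and the normoxic libraries of both genotypes overlapped. In WT cells Jmjd8 fell by 0.62 on the log2 scale (SE 0.15, adjusted p = 0.0092, edgeR), to 0.653 of its normoxic level. The call was lost without replicate 2 of WT normoxia (adjusted p = 0.093) and without replicate 2 of WT hypoxia (0.060). In FIH-KO cells the value was -0.23 (95% confidence interval -0.56 to 0.09) and the interaction 0.38 (-0.08 to 0.85, adjusted p = 0.80, edgeR). FIH-KO against WT gave 0.41 in hypoxia (0.08 to 0.74, adjusted p = 0.064, edgeR) and 0.03 in normoxia (-0.30 to 0.35). The 20 nearest tested genes had median log2 fold changes of -0.29 with hypoxia in WT and -0.30 in FIH-KO cells, with 7 and 4 of them above 0, and their part in the Jmjd8 result was not tested.

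HSPBAP1 was named for its association with the small heat shock protein HSPB1 (Hspbap1, ENSMUSG00000022849.6, chromosome 16, 35590706 to 35648847, plus strand). In normoxia it stood at 25.0 and 19.4 CPM in WT and at 29.7 and 33.6 CPM in FIH-KO cells. In hypoxia the WT libraries gave 27.5 and 22.4 CPM and the FIH-KO libraries 28.3 and 21.2 CPM. The FIH-KO normoxia libraries were the highest, and the other 3 groups overlapped. The normoxic log2 fold change of FIH-KO over WT was 0.51 (95% confidence interval 0.11 to 0.91, adjusted p = 0.056, edgeR), just short of the threshold, and it was the nearest that any member came to a rise on FIH loss in normoxia. It passed with DESeq2 (adjusted p = 0.047), without low-count filtering (0.017), with only the 4 libraries compared (0.029), with the replicate number as a term (0.032) and without replicate 1 (0.033) or 2 (0.026) of FIH-KO hypoxia. It fell to 0.32 (adjusted p = 0.39) without replicate 2 of WT normoxia. In hypoxia the value was -0.01 (-0.42 to 0.39). The 20 tested genes nearest to Hspbap1 had medians of 0.28 in normoxia and 0.51 in hypoxia, with 15 of them above 0 in each. Over the 424 other tested genes of chromosome 16 the median was 0.23 (normoxia) and 0.18 (hypoxia), and the adjacent gene Slc49a4 was higher in FIH-KO cells by 1.01 and 1.06 (adjusted p = 0.0010 each, edgeR). Their part in the Hspbap1 value was not tested.

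Tyw5 encodes the hydroxylase that completes hydroxywybutosine, a modified base next to the anticodon of phenylalanine tRNA (ENSMUSG00000048495.17, chromosome 1, 57427387 to 57446260, minus strand). Its levels were 13 and 12.1 CPM in WT normoxia, 12.9 and 14 CPM in WT hypoxia, 10.0 and 9.63 CPM in FIH-KO normoxia and 12.1 and 12 CPM in FIH-KO hypoxia. FIH-KO normoxia was the low group, and no comparison passed the test. The log2 fold change of FIH-KO over WT was -0.36 in normoxia (95% confidence interval -0.73 to 0.01, adjusted p = 0.14, edgeR) and -0.15 in hypoxia (-0.52 to 0.21). Hypoxia gave 0.09 in WT cells (-0.27 to 0.46) and 0.30 in FIH-KO cells (-0.07 to 0.67).

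**Figure D2:**
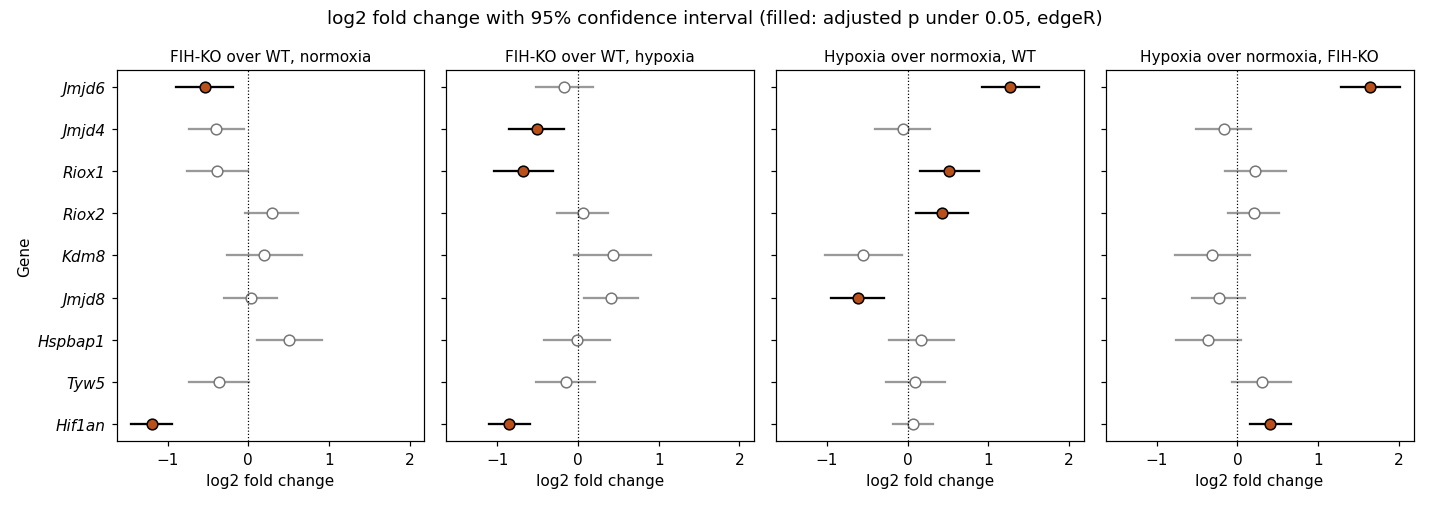
log2 fold change (horizontal axis) of the 8 genes and of Hif1an in the 4 comparisons, with 95% confidence intervals; filled points passed an adjusted p under 0.05 in edgeR. No filled point of the 8 genes lies above 0 in either comparison of FIH-KO with WT, and Jmjd6 lies at 1.27 and 1.65 in the comparisons of hypoxia with normoxia.

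Levels of different genes were compared per length, as TPM (a length-scaled level) over the union of annotated exons. On that scale Jmjd6 was the most abundant member, with a mean of 95.2 TPM over the 8 libraries, above 85.9% of tested genes. Riox1 followed at 49.3 TPM and Jmjd8 at 28.6 TPM. Hif1an, which differed by genotype, was above Jmjd8 in WT hypoxia (37.7 against 21.5 TPM) and below it in FIH-KO normoxia (15.5 against 33.1 TPM). Riox2 (18.2 TPM) and Kdm8 (17.4 TPM) changed order with oxygen, with Kdm8 the higher in WT normoxia (18.4 against 14.6 TPM) and the lower in WT hypoxia (12.8 against 20.1 TPM). Hspbap1 (11.1 TPM), Jmjd4 (8.82 TPM) and Tyw5 (8.55 TPM) were lowest. These lengths include the exons of every annotated transcript, whether or not it was used in these cells, so the order of close neighbors depends on the annotation. The summed level of the 8 members was 200 and 204 TPM in WT normoxia and 166 and 194 TPM in FIH-KO normoxia. In hypoxia the sums were 320 and 290 TPM in WT and 283 and 241 TPM in FIH-KO cells. The normoxic and hypoxic sums did not overlap, and Jmjd6 alone made up 21.7% to 31.3% of the sum in normoxia and 46.4% to 51.5% in hypoxia. Without Jmjd6 the sums ran from 129 to 162 TPM, and the oxygen conditions overlapped.

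Several members share their locus with a gene on the opposite strand, and since the strand setting of the counting is not given in the sources used here, reads could have been assigned to either. Exons of Jmjd6 overlap those of Mettl23, which held 10.4 to 15.6 CPM and had log2 fold changes with hypoxia of -0.03 in WT (adjusted p = 0.91, edgeR) and 0.30 in FIH-KO cells (0.29). For FIH-KO against WT in normoxia it was at -0.39 (adjusted p = 0.12, edgeR), in the direction of Jmjd6. Mettl23 had fewer counts than Jmjd6 in every library. Jmjd8 overlaps Stub1, which had 87.4 to 156 CPM, more than Jmjd8 itself. Stub1 was higher in FIH-KO cells by 0.48 in normoxia (adjusted p = 0.0096, edgeR) and 0.42 in hypoxia (0.018). Its values with hypoxia were -0.25 in WT (adjusted p = 0.12, edgeR) and -0.31 in FIH-KO cells (0.093), in the direction of Jmjd8 and not called. Jmjd4 overlaps Snap47, Riox2 overlaps Crybg3 and Tyw5 overlaps Maip1, and none of these 3 neighbors passed any of the comparisons. Riox1 overlaps Gm26571, which held 3 counts at most in any library.

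Tested genes averaging 50 counts or more were compared with each called member, and those whose log2 CPM followed the member most closely over the 8 libraries were named by the root mean square of the difference after centering, as a description. For Jmjd6, whose own values spanned 2.13 on that scale, they were Map2k1 at 0.15 and Ak4 at 0.16. Jmjd4 was closest to Taf1b and Coq5 at 0.05 each, Riox1 to Nufip1 at 0.06 and Pkp4 at 0.08, Riox2 to Scaf8 and Cradd at 0.09 each, and Jmjd8 to Yif1a at 0.04 and Txndc5 at 0.07. A total of 10575 genes were compared.

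The promoters of the members were read from GRCm39, from 250 bases before to 50 bases after the annotated start of the canonical transcript, because 3 members rose together in hypoxic WT cells and HIF binds a short core that occurs in many promoters. The letters searched were ACGTG and GCGTG on both strands, and the palindrome CACGTG counts on each strand. Of 13897 promoters of tested genes, 58.3% held at least 1 such core, and of the 2343 promoters of genes called higher with hypoxia in WT cells, 62.4% did. Jmjd6 had 3 matches, Jmjd4 had 3, Riox2 had 2, Kdm8 had 1 and Hspbap1 had 7, while Riox1, Jmjd8, Tyw5 and Hif1an had 0 in this window. Matches thus occurred both in members that rose with hypoxia and in members that were not called, and a match describes letters only. The Jmjd6 matches lie within the first bases of the transcript (5′ untranslated region). The Jmjd6 palindrome CACGTG, which counts on each strand, is shown once. The sequences are given with a Riox2 match upstream of its start and a Hspbap1 match as that of a member with no called response. Each is written 5′ to 3′ on the strand of the gene, with the core, or its reverse complement, in capitals.
Jmjd6, minus strand, chr11:116734606-116734634: cagggggctcccACGTGggtgccgccgca
Jmjd6, minus strand, chr11:116734591-116734619: tgggtgccgccgCACGCacctgcgggacg
Riox2, plus strand, chr16:59291991-59292019: aaaaagcacattCACGTtctgtgaccttt
Hspbap1, plus strand, chr16:35590653-35590681: acagcccagcccACGTGctcgccgccttt

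The substrates and partners of the members were read next, and for these and the following lists the shares of all tested genes called higher and lower were 15.2% and 13% for FIH-KO in normoxia, 14.1% and 13.9% for FIH-KO in hypoxia, 16.9% and 15.5% for hypoxia in WT and 8.84% and 8% for hypoxia in FIH-KO cells. Of 9 tested, 0 were called higher and 2 lower in FIH-KO cells in normoxia by edgeR, namely Etf1, the gene of eRF1, at -0.38 (SE 0.11, adjusted p = 0.020) and Drg2 at -0.39 (SE 0.12, adjusted p = 0.033), the latter a substrate of the related JMJD7. In hypoxia 1 was lower, Rccd1, at -0.91 (SE 0.28, adjusted p = 0.028, edgeR). Hypoxia in WT cells raised Rccd1 by 0.94 (adjusted p = 0.022) and lowered U2af2 (-0.40, adjusted p = 0.029) and Drg2 (-0.40, adjusted p = 0.026, edgeR), and in FIH-KO cells 0 were called by edgeR. At an unadjusted p under 0.05 there were 3 and 2 of the 9 for FIH-KO against WT in normoxia and hypoxia. There were 7 for hypoxia in WT, among them Rpl8 (-0.38) and Rps6 (-0.32), and 0 for hypoxia in FIH-KO cells. In the same order, 5505, 5500, 5957 and 4315 of the 13933 tested genes were under that p. The 9 had medians of -0.23 and -0.13 for FIH-KO against WT in normoxia and hypoxia. For hypoxia in WT and FIH-KO cells their medians were -0.23 and -0.06. The ribosomal protein genes Rpl8, Rpl27a and Rps6 were not called in any of these comparisons; they have many processed copies, so their counts are uncertain. Hspb1 held 0 counts in each FIH-KO library and 4 to 7 in the WT libraries, too few to be tested.

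Other enzymes of the same chemistry were considered alongside. Of 5 further protein and tRNA hydroxylases, 3 were lower in FIH-KO cells in both oxygen conditions: Ogfod1, the prolyl hydroxylase of RPS23, at -0.82 and -1, Alkbh8, a tRNA hydroxylase, at -0.63 and -0.55, and Alkbh1 at -0.51 and -0.58, with adjusted p values from 0.00019 to 0.028 (edgeR). None of the 5 was called higher; 0 lay higher at an unadjusted p under 0.05. With hypoxia Alkbh1 rose in both genotypes (0.66 in WT, 0.59 in FIH-KO) and Jmjd7 fell in WT cells (-1.09, adjusted p = 0.013, edgeR). Jmjd7 was also lower in hypoxia in FIH-KO cells, with a mean of 3.13 CPM against 5.44 CPM in normoxia, but was not called there. Of the 5 other genes of wybutosine synthesis, Tyw3 was lower in FIH-KO cells in both conditions (-0.76, adjusted p = 0.023, and -0.83, adjusted p = 0.016, edgeR) and Tyw1 in normoxia (-0.40, adjusted p = 0.049), and Tyw1 fell with hypoxia in WT cells (-0.40, adjusted p = 0.044). In the order FIH-KO in normoxia, FIH-KO in hypoxia, hypoxia in WT and hypoxia in FIH-KO, the medians were -0.51, -0.55, 0.04 and 0.12 for the hydroxylases and -0.40, -0.26, -0.34 and -0.17 for wybutosine synthesis.

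The HIF prolyl hydroxylase genes Egln1 and Egln3, known HIF targets, rose with hypoxia in WT cells (2.16 and 1.40) and in FIH-KO cells (2.33 and 1.84), and Egln2 was at -0.39 in WT (adjusted p = 0.057, edgeR) and at -0.50 in FIH-KO cells (adjusted p = 0.031, edgeR). In the comparison of genotypes, Egln2 was higher in FIH-KO cells in normoxia (0.47, adjusted p = 0.026) and Egln3 in hypoxia (0.85, adjusted p = 0.0039, edgeR). Of 16 tested JmjC histone demethylases, 13 rose with hypoxia in WT cells and 8 in FIH-KO cells, beside 16.9% and 8.84% of all tested genes, with 0 called lower in either, and their median log2 fold changes were 0.55 and 0.37. In each genotype 13 of the 16 lay above 0, beside 49.9% (WT) and 47% (FIH-KO) of all tested genes. At an unadjusted p under 0.05 there were 13 in each genotype, beside 5957 (WT) and 4315 (FIH-KO) of the 13933 tested genes. Kdm3a rose by 1.74 and 1.57, beside the 1.27 and 1.65 of Jmjd6. In FIH-KO against WT cells 3 demethylases were higher and 2 lower in normoxia, and 2 were higher and 3 lower in hypoxia. Kdm6a was higher in both conditions (0.62 and 0.45) and Kdm2a and Kdm2b lower in both (-0.40 and -0.37 in normoxia, -0.56 and -0.43 in hypoxia). All 8 hypoxia markers, of which Egln3 is 1, rose with hypoxia in WT cells and 7 in FIH-KO cells. The exception was Car9 at -0.22, which held only 2 to 5 counts in each FIH-KO library, and in FIH-KO cells 2 were higher in normoxia and 3 higher and 1 lower in hypoxia than in WT cells.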

How the data were processed

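Total RNA of the 8 LLC samples was sequenced as stranded, paired-end mRNA libraries. Demultiplexing (bcl2fastq), alignment to GRCm39 (STAR) and counting by gene (HTSeq) were done by the authors, and the deposited values are these raw counts, whole numbers without normalization. Tool versions, the annotation release and the strand setting of the counting are not given in the sources used here.

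Groups were taken from the sample labels. Counts of 53700 genes were filtered with filterByExpr, leaving 13933, and scaled by TMM (factors 0.983 to 1.02). All 8 libraries were fitted together by quasi-likelihood in edgeR 4.0.16 (R 4.3.3), with group as the only factor and Benjamini-Hochberg adjustment within each of 4 pairwise comparisons and their interaction. The biological coefficient of variation was 11.7%, and spread within groups exceeded that of counting alone (chi-square per degree of freedom 6.15 to 25.7). With 14519731 to 18177016 counts per library, members held 85 to 2967 counts. In simulated data for the normoxia comparison (13933 genes), edgeR called 16 of 67 genes changed 1.5-fold and 45 of 67 changed 2-fold. It called 54 of 66 changed 3-fold and 12 of 13733 unchanged genes. DESeq2 called 24, 43, 52 and 19 of the same genes. The simulation left 13733 of 13933 genes unchanged, whereas edgeR called 3933 in the data. Its adjusted threshold was therefore stricter, and these shares cannot be carried over to the members. How many changes of the size seen here were missed was not measured.

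The members and gene lists were chosen with earlier results of these data known. The lists were substrates and partners, wybutosine synthesis, other protein and tRNA hydroxylases, HIF prolyl hydroxylases, JmjC histone demethylases, hypoxia markers, and markers of epithelial, lung epithelial, mesenchymal, immune and endothelial cells. The list of substrates and partners counts 1 gene whose own values are not reported here. Named genes were the members, Hif1an, genes of these lists, for each called member the 2 tested genes nearest in pattern (mean of at least 50 counts), and overlapping or adjacent genes. Medians over a chromosome and over the 20 nearest tested genes were added after the data were seen.

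Positions, exon lengths and promoters came from GENCODE on GRCm39 (52610 identifiers matched, 97.97%), read with Python 3.11.15, pandas 2.3.3 and pysam 0.24.0, and plots were drawn with matplotlib 3.10.9. Other settings were the Wald test of DESeq2 1.42.0, RLE or upper-quartile factors, a filter of 1 count or of 10 counts per library, fits to the 4 libraries of a comparison, replicate number as a term, and removal of each library in turn, where a lone library was taken to vary like the other groups.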

Additional observations from a re-analysis of the deposited data

Results flagged for a closer look

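Hspbap1 drew attention because its hypoxic libraries lay on opposite sides of the normoxic mean in the 2 genotypes, although neither change passed the test. The WT hypoxia libraries, at 27.5 and 22.4 CPM, were above the WT normoxia mean of 22.2 CPM, the lower of them only just, and they overlapped the WT normoxia libraries (25.0 and 19.4 CPM). The log2 fold change in WT cells was 0.17 (95% confidence interval -0.23 to 0.57, adjusted p = 0.52, edgeR), and it was -0.04 without replicate 2 of WT normoxia and -0.02 without replicate 1 of WT hypoxia. The FIH-KO hypoxia libraries, at 28.3 and 21.2 CPM, were below both FIH-KO normoxia libraries, at 29.7 and 33.6 CPM, with a log2 fold change of -0.36 (-0.76 to 0.04, adjusted p = 0.21, edgeR). The interaction was -0.53 (-1.09 to 0.04, adjusted p = 0.76, edgeR), which did not pass the test.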

How the results depend on the processing

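The rise of Jmjd6 with hypoxia and the lower level of Hif1an in FIH-KO cells were called under every alternative. Members called in FIH-KO against WT went from 1 to 2 in normoxia with DESeq2, without low-count filtering, with only the 4 libraries compared and with the replicate number as a block, Hspbap1 being the gene gained, and from 2 to 1 in hypoxia without filtering and with only the 4 libraries, Jmjd4 being lost. Replicate numbers did not pair the samples (correlations of deviations -0.01 to 0.17), and the block moved the other counts of members called by 0. With each library left out, members called ranged from 0 to 4 (FIH-KO in normoxia; 4 without replicate 1 of FIH-KO hypoxia), 0 to 2 (FIH-KO in hypoxia), 1 to 4 (hypoxia in WT), 1 (hypoxia in FIH-KO) and 0 (interaction). All genes called then ranged from 1735 to 4672, 2170 to 3887, 2124 to 5270, 1097 to 2604 and 0 to 39. With only the 4 libraries, 1289 genes were called for hypoxia in FIH-KO cells against 2345. The interaction called 0 genes, 40 with DESeq2, 143 without filtering and 5 with the replicate block.

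Values near 0 that were never called changed sign. Hspbap1 in FIH-KO against WT in hypoxia was 0.02 without filtering, 0.00 with at least 10 counts in every library and 0.01 with only the 4 libraries, and -0.20 to 0.18 with libraries left out. Leaving out libraries gave -0.12 to 0.13 for Jmjd8 in FIH-KO normoxia, -0.04 to 0.20 for Riox2 and -0.36 to 0.04 for Jmjd6 in FIH-KO hypoxia, -0.04 to 0.32 for Hspbap1 and -0.03 to 0.11 for Hif1an with hypoxia in WT cells, and interactions of -0.15 to 0.06 for Jmjd4 and -0.36 to 0.05 for Riox2. Causes were not tested. Over the 8 members, 538 other values kept direction and side of the threshold, 27 lost the call and 10 gained it. In the simulated normoxia comparison both tools missed most differences of 1.5-fold. Few genes were changed there, which made the adjusted threshold stricter than in the data, so that share cannot be carried over to the members.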
